A study of Homo sapiens with 12 samples.

Results

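Nuclear-encoded subunits of the mitochondrial respiratory chain were followed in human pluripotent stem cells held in a naive or in a primed state. Members were chosen by patterns of gene symbols, most of which name structural subunits of complexes I to V. That rule reads no measured value, though it was set with earlier results of these data known. The rule found 86 of the 23613 genes in the tables. By symbol, 38 were placed in complex I, 4 in complex II, 8 in complex III, 17 in complex IV and 19 in complex V. Poly(A) RNA from hand-picked colonies was sequenced in 12 libraries, 3 for each of 4 groups: naive RUES2, primed RUES2, naive H9 and primed H9. RUES2 and H9 are human embryonic stem cell lines.

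Naive colonies grew in a glucose-free base of DMEM/F12 and Neurobasal with serum albumin, brought to 5 mM glucose, with 18 µg/mL insulin and 20 ng/mL leukaemia inhibitory factor. That medium also held 1 µM PD0325901, a MEK inhibitor, and 3 µM CHIR99021, a GSK3 inhibitor. Naive libraries came from passages 24 to 26 for RUES2 and 27 to 31 for H9. Primed colonies grew on mouse embryonic fibroblast feeders stopped with mitomycin C, in medium with 20% serum replacement and 4 ng/mL basic fibroblast growth factor, and came from passages 30 to 33 for RUES2 and 31 to 35 for H9. An mTOR inhibitor, the agent in the study's title, is not named in the labels here. The media differ in glucose, growth factors, inhibitors and feeders at once, so the state of the cells and the medium cannot be told apart. The labels speak of biological replicates without saying how cultures were separated, so p-values measure only how far these libraries spread, which may be technical.

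A check of the line labels found 3 libraries, out of 12, that did not match the others of their label; 0 of these 3 were labelled H9. Group names with RUES2 therefore mean libraries labelled RUES2, and any difference that involves those libraries cannot be told apart from what they are. The state comparison in H9 contrasts H9 libraries alone. The deposited FPKM, which give a gene's fragments per transcript length and per library size, summed to 754195 to 986124 per library, with 12681 to 13592 genes at 1 FPKM or more. A single entry, MIR4461, took 27.4% to 29.3% of that sum in naive RUES2, 16.8% to 21.6% in primed RUES2, 28.9% to 33.1% in naive H9 and 18.6% to 26.2% in primed H9.

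The respiratory chain passes electrons from NADH (complex I) and succinate (complex II) through ubiquinone to complex III, on through cytochrome c to complex IV, and from there to oxygen. Complexes I, III and IV pump protons across the inner mitochondrial membrane, and complex V, the ATP synthase, uses the gradient to make ATP. Most subunits are encoded in the nucleus and a small set of core subunits in mitochondrial DNA. Work on mouse and human stem cells has described naive cells as using both glycolysis and respiration, and primed cells as mostly glycolytic. That background concerns activity, whereas the values here are RNA levels of subunits.

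Of the 86 members, 81 reached 1 FPKM in at least 3 libraries and were tested. In RUES2, 54 of these 81 rose and 4 fell in naive against primed libraries, where 23.1% of all 14428 genes tested rose and 23.6% fell. In H9, 38 of 81 rose and 6 fell, where 20.4% of all genes tested rose and 23.9% fell. These calls are at an adjusted p under 0.05 in limma on log2(FPKM + 1), with Benjamini-Hochberg adjustment over all genes tested. The median log2 fold change over the 81 members was 0.32 in RUES2 and 0.18 in H9, beside 0.01 and -0.01 over all genes tested. All 3 naive libraries lay above all 3 primed ones for 54 members in RUES2 and 43 in H9, where 29% and 27% of all genes did so. They lay below for 4 members in RUES2 and 12 in H9, where 28.3% and 30.3% of all genes did so. The changes were small, with 33 of the 54 rises in RUES2 and 26 of the 38 in H9 under 0.5 on the log2 scale. COX7B in RUES2 was the single member whose fold change passed 1.

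These counts depend on how libraries are scaled to each other. With each library scaled to the same FPKM sum over tested genes, 13 members rose and 10 fell in RUES2, and 15 rose and 11 fell in H9. That scaling set the median of all genes to -0.20 in RUES2 and -0.12 in H9. The members' median then stood 0.27 above that of all genes in RUES2 and 0.16 above it in H9, against 0.30 and 0.19 in the values as deposited. Leaving the 10 highest entries out of the sum, a choice made after the data were seen, gave 44 rises and 5 falls in RUES2 and 40 rises and 6 falls in H9. Quantile normalization gave 45 and 5 in RUES2 and 32 and 11 in H9. The members' share of the whole FPKM sum overlapped between states, at 1.62% to 1.72% in naive RUES2, 1.62% to 1.77% in primed RUES2, 1.47% to 1.66% in naive H9 and 1.47% to 1.65% in primed H9. The rises are thus relative to the bulk of genes, not to the whole FPKM sum. Of that sum MIR4461 alone took 16.8% to 33.1%, so it is no measure of total RNA.

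**Figure D1:**
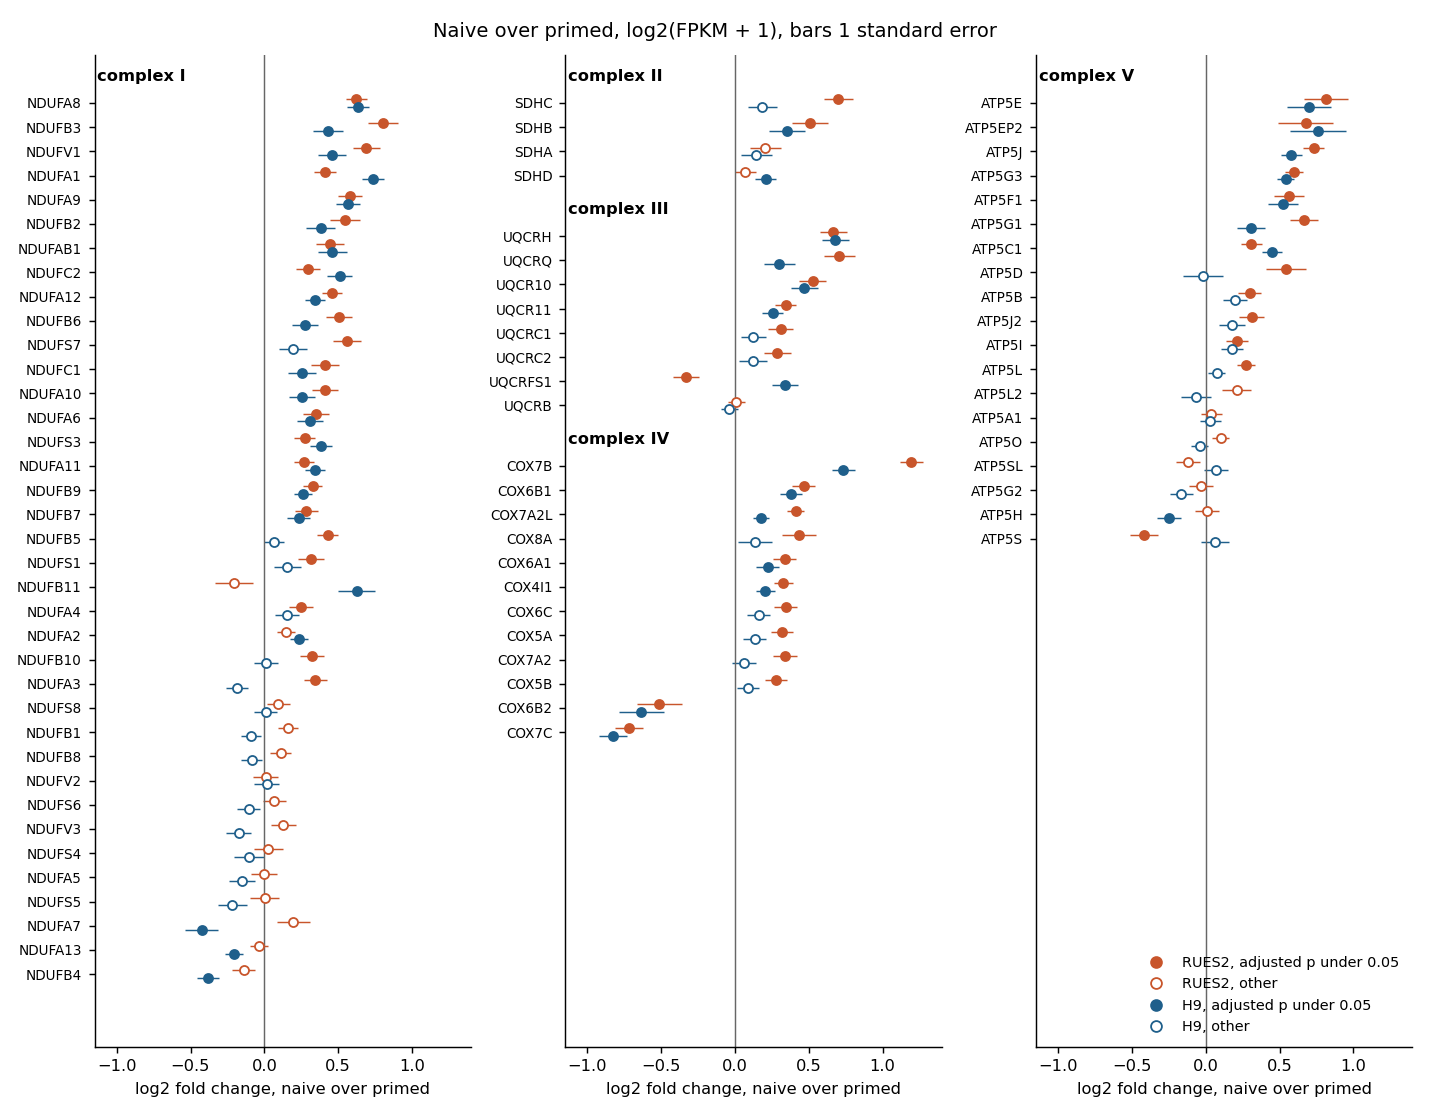
Log2 fold changes of 80 of the 81 tested members, naive over primed, by complex, for libraries labelled RUES2 and H9, with bars of 1 standard error on the log2(FPKM + 1) scale. Filled points have an adjusted p under 0.05. Most points lie right of 0, by less than 0.5, with COX7B farthest right and COX7C farthest left; scaled to the same FPKM sum, 10 members in RUES2 and 11 in H9 fell.

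All 5 complexes had a positive median in both labels, under every scaling tried. In RUES2 the median log2 fold change was 0.31 for complex I, 0.36 for complex II, 0.33 for complex III, 0.34 for complex IV and 0.30 for complex V. In H9 it was 0.21, 0.20, 0.28, 0.15 and 0.18 in the same order. These medians have no test. Summed FPKM of complex III averaged 1548 ± 73.3 in naive RUES2 and 1104 ± 73.6 in primed RUES2, and 1461 ± 14.5 in naive H9 and 1042 ± 27.3 in primed H9 (SD, n = 3 each). Summed FPKM of complex IV averaged 4280 ± 93.9 in naive RUES2, 3951 ± 223 in primed RUES2, 3626 ± 88.4 in naive H9 and 3826 ± 165 in primed H9 (SD, n = 3 each). In H9 the complex IV sum averaged lower in naive than in primed libraries, with overlap, while its median member was higher; COX7C, its most abundant member, fell.

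**Figure D2:**
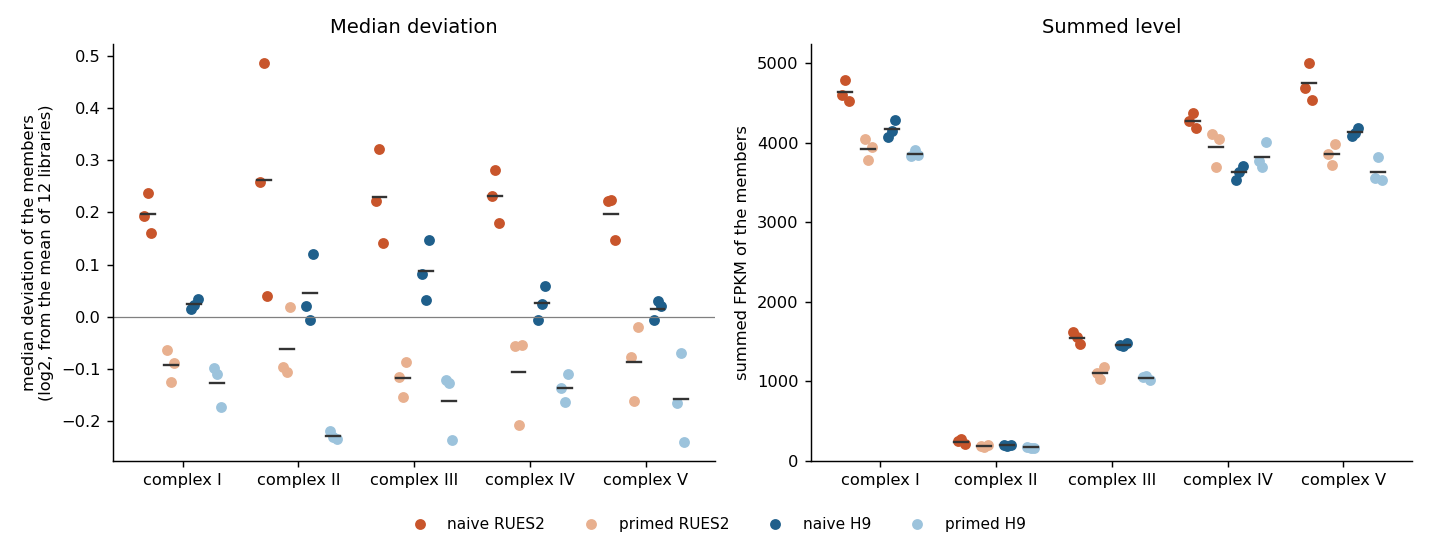
Median over the members of each complex of the deviation from the member's mean over all 12 libraries, in log2(FPKM + 1), 1 point per library (left), and the summed FPKM of its members (right). In the left panel naive libraries sit above primed ones of the same label in each complex, and the naive RUES2 libraries of complex II spread most (SD 0.22, n = 3); in the right panel naive and primed sums overlap for complex IV in H9, and with every library scaled to the same FPKM sum all 10 medians stayed above 0.

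Before the single members, the sequences upstream of 6 of them are given, because these 6 carry the results that follow: UQCRH, NDUFA1 and ATP5J rose in both labels, COX7B rose most in RUES2, COX7C fell most in both labels and UQCRFS1 moved in opposite directions. Each is the 250 bases before the annotated start, 5′ to 3′ on the gene's strand, from RefSeq on GRCh38.p14. Capitals mark matches to binding motifs of factors known to act on respiratory genes.
UQCRH, chr1:46303448-46303697, plus strand: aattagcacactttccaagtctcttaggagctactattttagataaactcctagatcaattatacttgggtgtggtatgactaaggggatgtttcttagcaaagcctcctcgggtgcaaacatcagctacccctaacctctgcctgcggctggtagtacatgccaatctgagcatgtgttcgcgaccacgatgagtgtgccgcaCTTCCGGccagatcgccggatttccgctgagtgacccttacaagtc
NDUFA1, chrX:119871582-119871831, plus strand: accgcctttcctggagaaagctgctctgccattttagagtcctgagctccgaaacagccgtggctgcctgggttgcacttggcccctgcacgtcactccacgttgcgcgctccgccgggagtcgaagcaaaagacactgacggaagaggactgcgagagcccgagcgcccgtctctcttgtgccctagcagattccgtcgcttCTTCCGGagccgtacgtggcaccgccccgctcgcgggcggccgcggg
ATP5J, chr21:25735055-25735304, minus strand: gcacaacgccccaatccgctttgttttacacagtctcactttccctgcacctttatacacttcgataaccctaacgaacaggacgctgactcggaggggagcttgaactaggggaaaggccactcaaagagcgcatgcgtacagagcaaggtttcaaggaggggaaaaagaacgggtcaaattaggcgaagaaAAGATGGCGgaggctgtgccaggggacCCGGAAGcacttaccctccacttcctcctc
COX7B, chrX:77899218-77899467, plus strand: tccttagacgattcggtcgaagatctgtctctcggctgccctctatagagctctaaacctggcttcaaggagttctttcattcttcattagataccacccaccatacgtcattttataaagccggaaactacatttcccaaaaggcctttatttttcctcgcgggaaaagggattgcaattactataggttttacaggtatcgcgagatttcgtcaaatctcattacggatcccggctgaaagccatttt
COX7C, chr5:86617691-86617940, plus strand: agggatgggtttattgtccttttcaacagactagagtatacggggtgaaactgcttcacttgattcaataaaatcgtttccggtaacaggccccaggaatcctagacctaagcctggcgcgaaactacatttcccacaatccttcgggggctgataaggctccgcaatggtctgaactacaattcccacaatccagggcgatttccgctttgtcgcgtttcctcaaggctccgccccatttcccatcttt
UQCRFS1, chr19:29213152-29213401, minus strand: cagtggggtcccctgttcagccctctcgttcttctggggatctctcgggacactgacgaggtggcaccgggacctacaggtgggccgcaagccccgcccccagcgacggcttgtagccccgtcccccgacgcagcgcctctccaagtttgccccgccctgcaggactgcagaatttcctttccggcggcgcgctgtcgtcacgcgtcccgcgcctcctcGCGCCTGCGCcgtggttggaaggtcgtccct

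The capitals in UQCRH and NDUFA1 are the ETS motif CCGGAAG, bound by GABPA, read on the opposite strand. ATP5J holds the YY1 motif AAGATGGCG and, apart from it, CCGGAAG. UQCRFS1 holds the consensus motif of NRF1, the nuclear respiratory factor, on the opposite strand. COX7B and COX7C hold none of the 5 motifs searched on both strands, which were these 3, the CREB1 motif TGACGTCA and the ESRRA motif TCAAGGTCA. Promoters were matched for 69 of the 86 members. Within the same 250 bases before the start, the NRF1 motif was in 20.3% of the members' promoters and 7.65% of 15843 protein-coding promoters, and the ETS motif in 23.2% and 11.8%. Either of both motifs was in 14 of the 30 promoters of members that rose in both labels and in 14 of the 39 of all other members. TGACGTCA was in 5.8% of the members' promoters and 2.32% of all, AAGATGGCG in 1.45% and 0.751%, and TCAAGGTCA in 0% and 0.215%. These matches describe letters only.

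Complex I takes electrons from NADH in its peripheral arm and hands them to ubiquinone. In RUES2, 24 of its 38 members rose and 0 fell (26 at an unadjusted p under 0.05), and in H9 19 rose and 3 fell. Of the 7 nuclear core subunits that carry the redox chain, 5 rose in RUES2 and 2 in H9. Of the 31 other subunits 19 rose in RUES2, and 17 rose and 3 fell in H9. With libraries scaled to the same FPKM sum, 5 of the 38 rose and 3 fell in RUES2, and 7 rose and 7 fell in H9. NDUFV1 (hg19 chromosome 11, 67374323 to 67380012) binds FMN and oxidises NADH. NDUFV1 measured 79.7, 91.5 and 72.1 FPKM in naive RUES2, against 45.8, 53.7 and 49.7 in primed RUES2, and 64.7, 61.1 and 69.7 in naive H9, against 47.4, 45.9 and 48.2 in primed H9. Every naive library was above every primed one of its label, and NDUFV1 rose by 0.69 ± 0.09 in RUES2 (log2, SE; adjusted p = 0.000221, limma) and by 0.46 ± 0.09 in H9 (adjusted p = 0.00292, limma).

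Among the accessory subunits of complex I, NDUFB3, in the membrane arm, had the highest fold change in RUES2, with 81.8, 78.8 and 76.1 FPKM in naive and 50.3, 37.0 and 48.0 FPKM in primed libraries (0.81 ± 0.10, adjusted p = 0.000141, limma). In H9, NDUFB3 had 62.3, 58.5 and 64.6 FPKM in naive and 44.3, 46.4 and 45.8 FPKM in primed libraries (0.43 ± 0.10, adjusted p = 0.00605, limma), with no overlap in either label. NDUFA8, another accessory subunit, rose in both labels (0.62 and 0.64), averaging 84.6 ± 4.5 FPKM in naive and 54.7 ± 4.93 FPKM in primed RUES2, and 87.3 ± 2.97 FPKM in naive and 55.8 ± 1.5 FPKM in primed H9 (SD, n = 3 each). NDUFA1 (hg19 chromosome X, 119005734 to 119010629), an accessory subunit needed for assembly, measured 232, 219 and 216 FPKM in naive and 169.7, 159.7 and 172 FPKM in primed RUES2. In H9 NDUFA1 measured 263, 254 and 302 FPKM in naive and 164, 155 and 170.0 FPKM in primed libraries. NDUFA1 rose by 0.41 ± 0.08 in RUES2 (adjusted p = 0.00159, limma) and by 0.74 ± 0.08 in H9 (adjusted p = 4.46e-05, limma). The RUES2 call of NDUFA1 ended when libraries were scaled to the same FPKM sum (adjusted p = 0.248, limma).

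In the values as deposited, the 3 complex I members that fell, in H9, were NDUFA7, NDUFA13 and NDUFB4, all accessory subunits. NDUFB4 averaged 119.8 ± 8.0 FPKM in naive and 156 ± 4.15 FPKM in primed H9 (-0.38, adjusted p = 0.0025, limma), and 133 ± 5.99 FPKM in naive and 147 ± 11.9 FPKM in primed RUES2 (-0.14, adjusted p = 0.15, limma; SD, n = 3 each). NDUFA13, also known as GRIM-19, averaged 291 ± 5.35 FPKM in naive and 335 ± 15.1 FPKM in primed H9 (SD, n = 3 each). Its call in H9 (-0.20, adjusted p = 0.0205, limma) ended without naive H9 replicate 1 (adjusted p = 0.0755, limma) or replicate 2 (adjusted p = 0.0597, limma). NDUFA4, listed with complex I by its symbol and now placed in complex IV, averaged 120.4 ± 6.28 FPKM in naive and 101 ± 7.44 FPKM in primed RUES2 (SD, n = 3 each). Its rise there (0.25, adjusted p = 0.0316, limma) turned to -0.000777 with libraries scaled to the same FPKM sum, and its call ended without naive RUES2 replicate 1 or 3 or primed RUES2 replicate 2 (adjusted p 0.0809 to 0.109, limma). The least abundant member of complex I, the accessory subunit NDUFA10, averaged 20.1 ± 2.41 FPKM in naive and 14.8 ± 0.278 FPKM in primed RUES2, and 15.6 ± 0.662 FPKM in naive and 13.0 ± 1.12 FPKM in primed H9 (SD, n = 3 each). NDUFA10 rose in RUES2 (0.41, adjusted p = 0.0039, limma) and in H9 (0.25, adjusted p = 0.041, limma), where the call ended without any of 7 libraries, 5 of them H9 (adjusted p 0.0532 to 0.126, limma). The most abundant member of complex I, NDUFS5, passed the test in neither label, with 406 ± 27.4 FPKM in naive and 406 ± 50.6 FPKM in primed RUES2 and 343 ± 3.58 FPKM in naive and 399 ± 26.8 FPKM in primed H9 (SD, n = 3 each).

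Complex II, succinate dehydrogenase, belongs to both the citric acid cycle and the respiratory chain, and its 4 subunits are all nuclear. SDHB, the iron-sulfur subunit, rose in both labels, averaging 70.4 ± 12.5 FPKM in naive and 48.9 ± 5.79 FPKM in primed RUES2 (0.51, adjusted p = 0.00573, limma). In H9, SDHB averaged 57.5 ± 2.14 FPKM in naive and 44.8 ± 0.740 FPKM in primed libraries (SD, n = 3 each; 0.35, adjusted p = 0.0352, limma), a call that ended without any 1 of the 6 H9 libraries (adjusted p 0.0624 to 0.101, limma). The membrane anchor SDHC (hg19 chromosome 1, 161284166 to 161334535) measured 66.3, 74.1 and 54.7 FPKM in naive and 40.3, 38.5 and 39.3 FPKM in primed RUES2, and 37.2, 36.6 and 38.1 FPKM in naive and 33.9, 34.4 and 29.9 FPKM in primed H9. Naive libraries were above primed ones in both labels, but SDHC passed the test in RUES2 (0.70 ± 0.10, adjusted p = 0.000315, limma) and not in H9 (0.19 ± 0.10, adjusted p = 0.155, limma). The difference between those effects missed the threshold (0.51, adjusted p = 0.0624, limma). The other anchor, SDHD, rose in H9 (0.21, adjusted p = 0.0347, limma), a call lost on leaving out any of its 3 naive libraries, or primed replicate 2 or 3 (adjusted p 0.0537 to 0.107, limma). SDHA, the flavoprotein that oxidises succinate, overlapped between states in both labels.

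Complex III moves electrons from ubiquinol to cytochrome c. In RUES2, 6 of 8 members rose and 1 fell, and in H9 5 rose and 0 fell (5 at an unadjusted p under 0.05). With libraries scaled to the same FPKM sum, 2 rose and 2 fell in RUES2, and 1 rose and 0 fell in H9. CYC1, cytochrome c1 of this complex, has a symbol outside the rule and is counted below with the electron carriers. It passed the test in neither label (0.18, adjusted p = 0.166 in RUES2, and 0.07, adjusted p = 0.6 in H9, limma). The hinge protein UQCRH (hg19 chromosome 1, 46769380 to 46782447), which assists the contact with cytochrome c, was the most abundant. UQCRH measured 1024, 905 and 918 FPKM in naive and 594, 533 and 671 FPKM in primed RUES2, and 886, 855 and 879 FPKM in naive and 546, 553 and 535 FPKM in primed H9. The states were well apart in both labels, with a rise of 0.67 ± 0.09 in RUES2 (adjusted p = 0.000234, limma) and of 0.68 ± 0.09 in H9 (adjusted p = 0.000228, limma). The small subunits UQCRQ, UQCR10 and UQCR11 also rose in both labels. The H9 call of UQCRQ (0.30, adjusted p = 0.0411, limma) ended without any naive H9 library, without primed H9 replicate 2 or 3, and without naive RUES2 replicate 1 or primed RUES2 replicate 3, which share the spread (adjusted p 0.0525 to 0.126, limma). UQCR10 averaged 109.6 ± 3.46 FPKM in naive and 75.8 ± 1.43 FPKM in primed RUES2, and 97.8 ± 3.22 FPKM in naive H9 (SD, n = 3 each), against 70.7, 80.9 and 60.8 FPKM in primed H9. UQCRB, the ubiquinone-binding subunit, overlapped between states in both labels, with group means from 26.9 to 28.7 FPKM.

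UQCRFS1 (hg19 chromosome 19, 29698167 to 29704136), the Rieske iron-sulfur protein, went opposite ways in the labels. It measured 86.3, 96.1 and 79.8 FPKM in naive and 114, 105 and 111 FPKM in primed RUES2, and 132, 148 and 139 FPKM in naive and 118, 114 and 99.4 FPKM in primed H9. All naive libraries were below primed ones in RUES2 and above them in H9. UQCRFS1 fell by 0.33 on the log2 scale in RUES2 (adjusted p = 0.0119, limma) and rose by 0.34 in H9 (adjusted p = 0.0113, limma), and the difference of the effects, RUES2 minus H9, was -0.67 ± 0.13 (adjusted p = 0.0147, limma). That difference held in all 24 alternatives that gave it (highest adjusted p = 0.0448, limma). The rise in H9 was lost with libraries scaled to the same FPKM sum (adjusted p = 0.154, limma). Of the 81 tested members it is the one called in opposite directions.

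Complex IV, cytochrome c oxidase, reduces oxygen. All 12 of its tested members passed the test in RUES2, 10 higher and 2 lower, and in H9 5 rose and 2 fell. With libraries scaled to the same FPKM sum, 1 rose and 2 fell in each label. Quantile normalization gave 6 rises and 2 falls in RUES2, and 2 rises and 2 falls in H9. COX7B (hg19 chromosome X, 77154961 to 77160881), a small subunit, had the highest fold change of all members in RUES2. It measured 697, 605 and 639 FPKM in naive and 293, 265 and 287 FPKM in primed RUES2, and 447, 449 and 503 FPKM in naive and 284, 274 and 281 FPKM in primed H9. The primed libraries of both labels overlapped and the naive ones stood above them, by 1.20 ± 0.08 in RUES2 (adjusted p = 2.68e-06, limma) and 0.73 ± 0.08 in H9 (adjusted p = 5.38e-05, limma). The change of COX7B was 0.46 greater in RUES2 than in H9 (adjusted p = 0.039, limma), and this difference kept its call in 10 of 24 alternatives, ending without any 1 library other than naive H9 replicate 3 or naive RUES2 replicate 2 (adjusted p 0.0507 to 0.111, limma).

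COX7C (hg19 chromosome 5, 85913784 to 85916583), another small subunit and the most abundant member with a mean of 1218 FPKM over the 12 libraries, ran the other way. COX7C measured 943, 1003 and 936 FPKM in naive and 1686, 1471 and 1598 FPKM in primed RUES2, and 821, 859 and 827 FPKM in naive and 1409, 1383 and 1675 FPKM in primed H9. No naive library reached a primed one in either label, and COX7C fell by 0.72 on the log2 scale in RUES2 (SE 0.09, adjusted p = 0.00018, limma) and by 0.83 in H9 (SE 0.09, adjusted p = 8.19e-05, limma). Both calls of COX7C, and both of COX7B and UQCRH, held in every alternative. The tables do not say how reads shared with near-identical processed copies were counted. Pseudogenes named after UQCRH, COX7B and COX7C exist (4, 1 and 1 in the annotation), so their levels are uncertain to that extent. The same limit holds for other members with such pseudogenes, among them NDUFB4 (12), COX6B1 (7), ATP5G1 (7), NDUFA3 (5), ATP5H (4), SDHC (4) and UQCRFS1 (3).

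**Figure D3:**
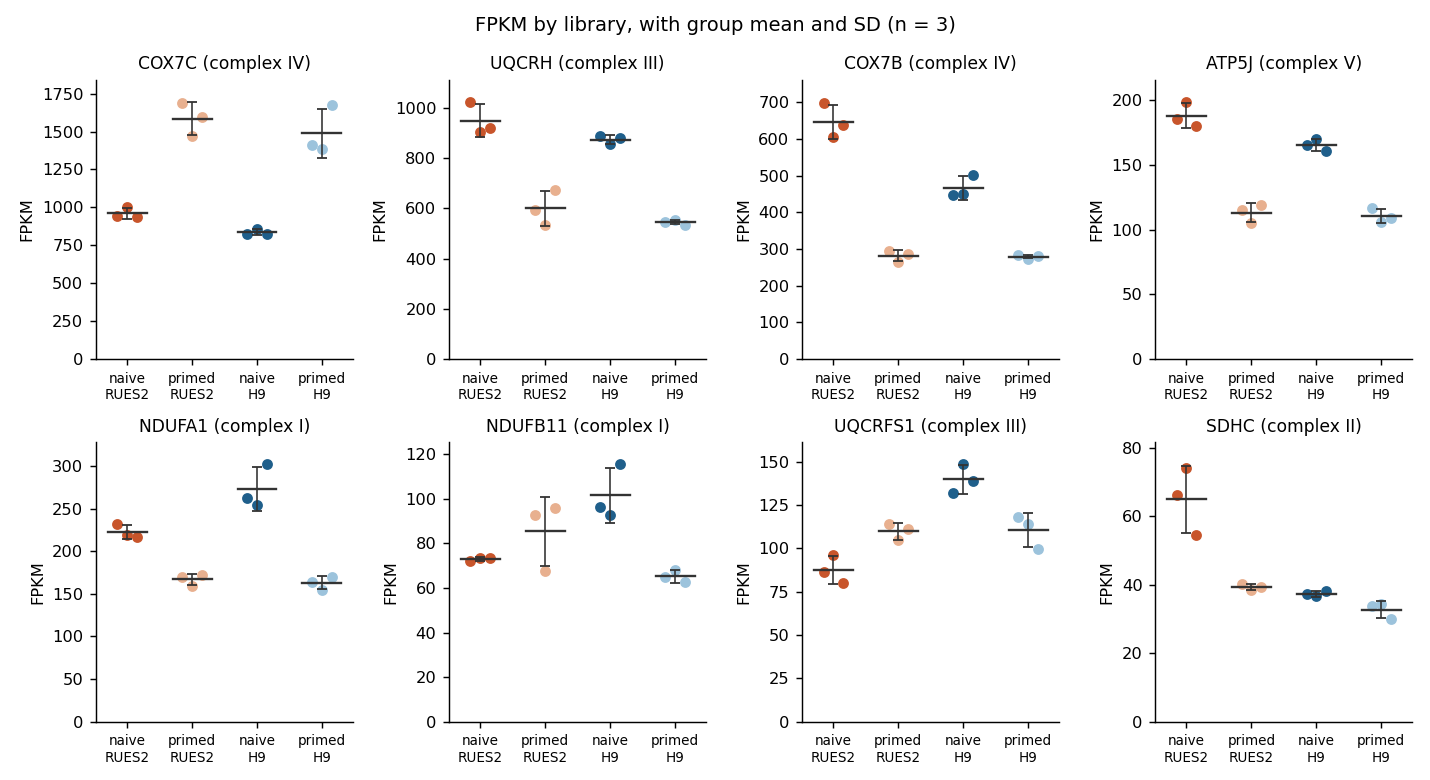
FPKM of 8 members in each library, with the group mean and SD (n = 3). UQCRH, COX7B, ATP5J, NDUFA1 and SDHC are higher in naive libraries of both labels, COX7C is lower in both, and UQCRFS1 lies below the primed libraries in RUES2 and above them in H9; naive and primed RUES2 overlap for NDUFB11.

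Several complex IV subunits have a second gene used in particular tissues. COX4I2 (lung), COX6A2 (heart and muscle), COX7B2 and COX8C did not reach 1 FPKM in 3 libraries, nor did COX7A1 (heart and muscle); their ubiquitous partners COX4I1, COX6A1, COX7B, COX8A and COX7A2 averaged at least 176 FPKM in every group. COX4I2, which is induced at low oxygen in lung, was listed at 0 in all 3 naive RUES2 libraries, 1 primed RUES2 library and 2 naive H9 libraries, and reached at most 0.436 FPKM in primed RUES2 and 0.294 FPKM in primed H9. COX7A1 measured 0.744, 0.678 and 0.825 FPKM in primed RUES2 and at most 0.192 FPKM in each of the other 9 libraries. The testis isoform COX6B2 was lowest of the tested members, at 1.74, 1.60 and 1.81 FPKM in naive and 2.86, 3.52 and 2.33 FPKM in primed RUES2, and 1.72, 1.45 and 1.85 FPKM in naive and 3.16, 2.41 and 4.02 FPKM in primed H9. COX6B2 fell in both labels (-0.51, adjusted p = 0.0179 in RUES2; -0.63, adjusted p = 0.00678 in H9, limma), while COX6B1 rose in both (0.46 and 0.38). Each call of COX6B1 ended in 1 of 25 alternatives (adjusted p = 0.0892 in RUES2 and 0.0599 in H9, limma). COX7A2L, a relative of COX7A2 that links complexes III and IV in supercomplexes, averaged 104.8 ± 1.27 FPKM in naive and 78.7 ± 3.92 FPKM in primed RUES2, and 87.2 ± 1.10 FPKM in naive and 77.1 ± 2.76 FPKM in primed H9 (SD, n = 3 each). COX7A2L rose by 0.41 in RUES2 (adjusted p = 0.00023, limma) and by 0.18 in H9 (adjusted p = 0.0267, limma), where the call ended without any naive library or primed replicate 1 (adjusted p 0.0630 to 0.0926, limma). Scaled to the same FPKM sum, COX7A2L passed the test in neither label. The RUES2 call of COX6B2 ended without naive RUES2 replicate 2 (adjusted p = 0.0548, limma) or primed RUES2 replicate 2 (adjusted p = 0.0643, limma). COX6B2 made up 0.473% ± 0.0370 of the COX6B sum in naive and 1.11% ± 0.296 in primed RUES2, and 0.533% ± 0.0656 in naive and 1.33% ± 0.377 in primed H9 (SD, n = 3 each).

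Complex V couples the proton gradient to ATP synthesis through the F1 head, the stalks and a membrane ring of c subunits. In RUES2, 12 of 19 members rose and 1 fell, and in H9 7 rose and 1 fell. Among these 19, 4 were counted by symbol and are not classic subunits: ATP5EP2, ATP5L2, ATP5S and ATP5SL. Of 5 F1 subunits, 4 rose in RUES2 and 2 in H9. With libraries scaled to the same FPKM sum, 4 of the 19 rose and 3 fell in RUES2, and 6 rose and 2 fell in H9. ATP5E, the epsilon subunit of F1, measured 509, 519 and 542 FPKM in naive and 269, 286 and 339.6 FPKM in primed RUES2, and 458, 435 and 469 FPKM in naive and 260.2, 364 and 229.6 FPKM in primed H9. No primed library reached a naive one, and ATP5E rose by 0.82 ± 0.15 in RUES2 (adjusted p = 0.00143, limma) and 0.70 ± 0.15 in H9 (adjusted p = 0.00388, limma). Its pseudogene ATP5EP2, chosen by its symbol, had 1.47 to 4.85 FPKM and also rose in both labels (0.68 and 0.76). The RUES2 call of ATP5EP2 ended without naive RUES2 replicate 3 (adjusted p = 0.0503, limma). Reads shared between ATP5E and ATP5EP2 cannot be told apart here. The catalytic beta subunit ATP5B, the most abundant, averaged 683 ± 58.2 FPKM in naive and 554 ± 29.4 FPKM in primed RUES2 (0.30, adjusted p = 0.0109, limma), and 585 ± 2.36 FPKM in naive and 510.4 ± 21.6 FPKM in primed H9 (SD, n = 3 each; 0.20, adjusted p = 0.0653, limma). The RUES2 call of ATP5B ended in 2 of 25 alternatives, where its change was as low as 0.046 (highest adjusted p = 0.702, limma).

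ATP5J (hg19 chromosome 21, 27096791 to 27107965), coupling factor 6 of the peripheral stalk, measured 186, 199 and 179.9 FPKM in naive and 115, 105 and 119 FPKM in primed RUES2, and 166, 170.3 and 161 FPKM in naive and 117, 106 and 109 FPKM in primed H9. The groups did not overlap, with a rise of 0.73 ± 0.07 in RUES2 (adjusted p = 2.55e-05, limma) and of 0.58 ± 0.07 in H9 (adjusted p = 0.000115, limma). ATP5H, subunit d of the same stalk, averaged 322 ± 9.18 FPKM in naive and 321 ± 26.6 FPKM in primed RUES2, and 232 ± 5.05 FPKM in naive and 276 ± 25.9 FPKM in primed H9 (SD, n = 3 each; -0.25 in H9, adjusted p = 0.0338, limma). Its call in H9 ended without any 1 of 5 H9 libraries, all but primed replicate 2 (adjusted p 0.0652 to 0.100, limma). ATP5S, factor B and not a classic subunit, fell in RUES2 (3.63 ± 0.302 FPKM in naive and 5.18 ± 0.394 FPKM in primed libraries, SD, n = 3 each; -0.42, adjusted p = 0.00455, limma).

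The c subunit is made from 3 genes, ATP5G1, ATP5G2 and ATP5G3, which encode the same mature protein with different import sequences. ATP5G1 averaged 269 ± 33.4 FPKM in naive and 169 ± 12 FPKM in primed RUES2, and 184 ± 6.60 FPKM in naive and 148 ± 8.90 FPKM in primed H9 (SD, n = 3 each). It rose by 0.67 in RUES2 (adjusted p = 0.00028, limma) and by 0.31 in H9 (adjusted p = 0.0216, limma), where the call ended without naive replicate 1 or 2 or primed replicate 1 or 2 (adjusted p 0.0501 to 0.0748, limma). ATP5G3 rose by 0.60 in RUES2 (adjusted p = 3.5e-05, limma) and by 0.54 in H9 (adjusted p = 6.61e-05, limma), while ATP5G2 passed the test in neither (-0.03 and -0.16). ATP5G2 made up 45.7% ± 1.29 of the 3 genes' sum in naive and 57.3% ± 2.48 in primed RUES2, and 47.7% ± 0.803 in naive and 57.5% ± 0.553 in primed H9 (SD, n = 3 each). The annotation holds 7 pseudogenes named after ATP5G1, 3 after ATP5G2 and 0 after ATP5G3, so these shares are uncertain to that extent. In each label every naive library had a lower ATP5G2 share than every primed one; 3 against 3 libraries cannot reach an exact permutation p under 0.1, two-sided, so no test was made.

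**Figure D4:**
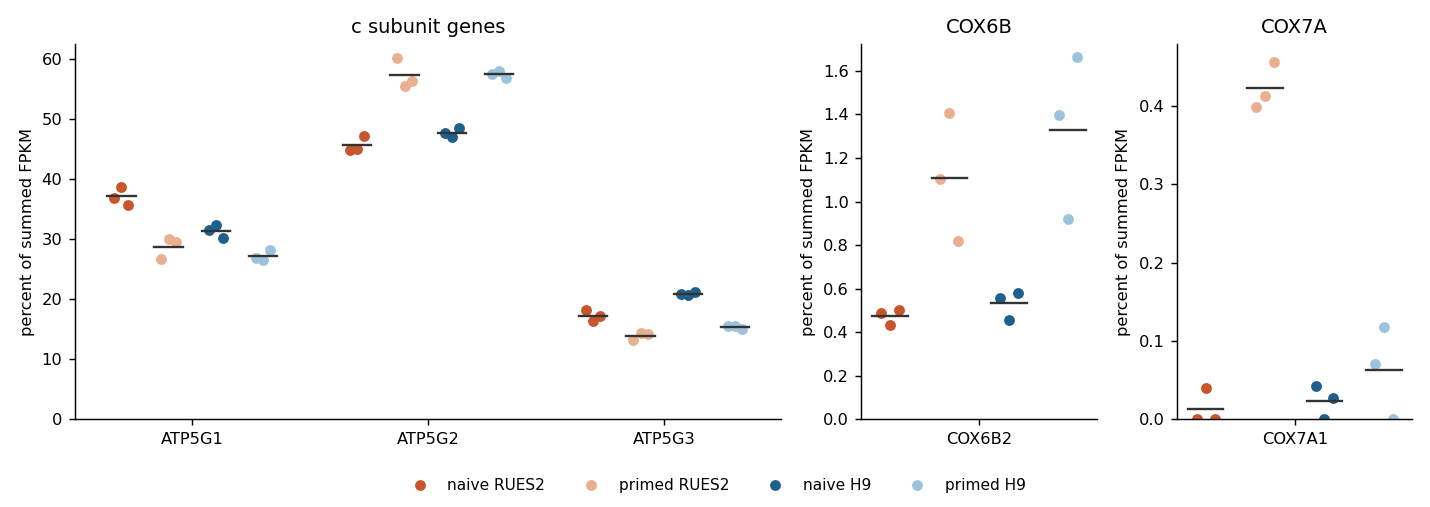
Share of each c-subunit gene in the summed FPKM of ATP5G1, ATP5G2 and ATP5G3, and of COX6B2 and COX7A1 in the COX6B and COX7A sums, in percent, 1 point per library with the group mean as a line. The ATP5G2 share is near 46% to 48% in naive and 57% in primed groups.

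The labels shared most of the rises. Of the members that rose, 34 did so in both labels, which is 63.0% of the 54 in RUES2 and 89.5% of the 38 in H9. The same overlap was not computed over all genes tested, so it cannot be read as a trait of the members. COX6B2 and COX7C fell in both. With the RUES2 libraries fitted alone, 51 rose, all among the 54, and the same 4 fell. With the H9 libraries fitted alone, 29 members rose, all 29 among the 38, and 5 fell, 4 of them among the 6. In the primed state, 0 of 81 members differed between primed RUES2 and primed H9 at an adjusted p under 0.05 in limma (8 at an unadjusted p under 0.05; 1.82% of all genes tested were called), with a median of 0.05. In the naive state 18 members were higher and 3 lower in RUES2 than in H9, where 11.2% of all genes tested were higher and 4.69% lower, with a median of 0.17. Scaled to the same FPKM sum, 9 were higher and 2 lower. These 5 comparisons share groups of libraries with each other.

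The change between states differed between the labels for 6 of 81 members, 4 with a positive and 2 with a negative difference, beside 3.77% and 1.93% of all genes. Among these it was more positive in RUES2 for NDUFA7 (0.62, adjusted p = 0.0493), NDUFA3 (0.53, adjusted p = 0.0191) and COX7B, and more negative for NDUFB11 (-0.83, adjusted p = 0.0254) and UQCRFS1, in limma. The number of positive calls, 4 with all libraries, was 0 without naive H9 replicate 1 or primed RUES2 replicate 1, 1 without naive H9 replicate 2 or naive RUES2 replicate 1, 2 without naive H9 replicate 3, primed H9 replicate 1 or primed RUES2 replicate 2 or 3, and 3 without primed H9 replicate 3 or naive RUES2 replicate 2 or 3.

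NDUFA3 and NDUFA7 are accessory subunits. NDUFA3 averaged 189 ± 17.2 FPKM in naive and 148 ± 2.53 FPKM in primed RUES2, and 143 ± 4.99 FPKM in naive and 163 ± 8.85 FPKM in primed H9 (SD, n = 3 each). NDUFA7 averaged 98.4 ± 8.23 FPKM in naive and 85.9 ± 8.59 FPKM in primed RUES2, and 65.2 ± 4.46 FPKM in naive and 88.2 ± 12.2 FPKM in primed H9 (SD, n = 3 each). The difference for NDUFA3 lost its call without naive H9 replicate 1 (adjusted p = 0.0607, limma) or primed RUES2 replicate 1 (adjusted p = 0.0502, limma). The difference for NDUFA7 kept its call in 3 of 24 alternatives, and without 1 library only when primed H9 replicate 2 was left out. NDUFB11 (hg19 chromosome X, 47001615 to 47004609), an accessory subunit of the membrane arm, measured 71.9, 73.5 and 73.5 FPKM in naive and 92.6, 67.5 and 95.8 FPKM in primed RUES2, and 96.3, 92.5 and 115 FPKM in naive and 65.0, 67.9 and 62.5 FPKM in primed H9. It overlapped between states in RUES2 and rose in H9 (0.63, adjusted p = 0.00278, limma). Its difference between labels was lost without naive H9 replicate 1 or 3, naive RUES2 replicate 1 or 2, or primed RUES2 replicate 1 or 3 (adjusted p 0.0506 to 0.0677, limma).

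The position of these members was compared with their surroundings. On chromosome 1 beyond its centromere, where SDHC lies, the median of 639 tested genes was 0.26 higher on the log2 scale in naive RUES2 than in naive H9, beside 0.01 for 806 genes on the rest of that chromosome. In naive over primed libraries, the median of those 639 genes was 0.27 in RUES2 and -0.05 in H9. The 74 genes within 5 Mb of SDHC had 0.20 and -0.07. On chromosome X, which holds NDUFA1, NDUFB11 and COX7B, the median of 542 genes was 0.01 in naive over primed RUES2 and 0.28 in naive over primed H9. Genes within 5 Mb of NDUFB11 had a median change of 0.08 in RUES2 and 0.47 in H9 (64 genes), and those around NDUFA1 of 0.42 and 0.63 (31 genes). Genes around COX7B had -0.04 and -0.00 (29 genes), and those around UQCRFS1 -0.08 and -0.03 (24 genes). The part of chromosomal dosage in the members' values was not tested.

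**Figure D5:**
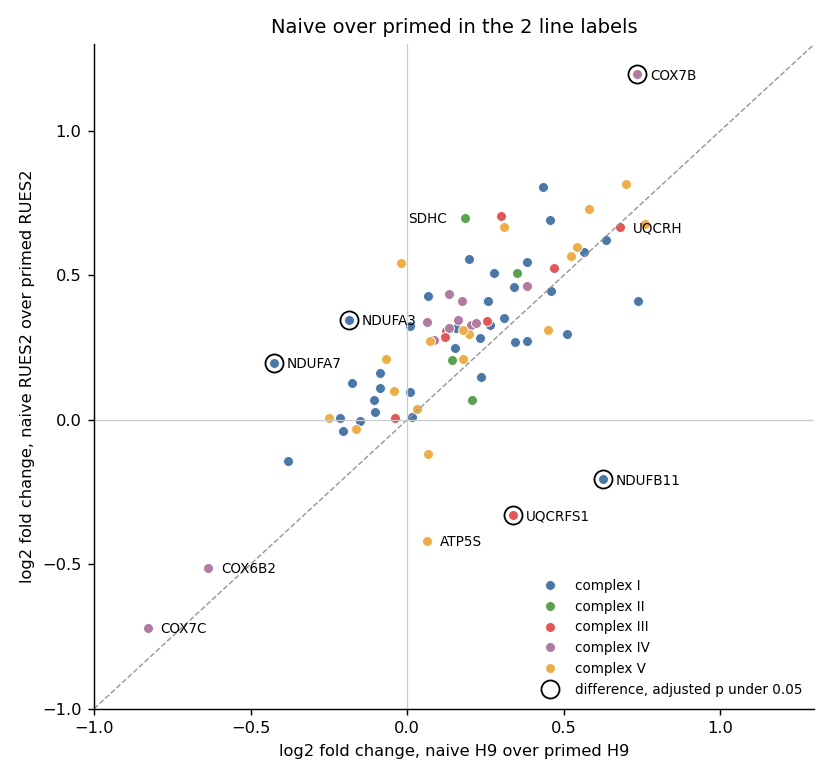
Log2 fold change of 80 of the 81 tested members, naive over primed, in RUES2 against that in H9. The 5 plotted members called for the difference between labels are named; UQCRFS1 lies in the quadrant of opposite calls, and COX7C lies low in both.

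Other genes of the pathway were taken from lists chosen with earlier results of these data known. Their counts stand beside 23.1% of all genes tested that rose and 23.6% that fell in RUES2, and 20.4% and 23.9% in H9. Among 13 tested complex I assembly factors, 5 rose and 0 fell in RUES2, and 3 rose and 1 fell in H9. NDUFAF4 rose in both (19.6 ± 0.908 FPKM in naive and 12.2 ± 2.06 FPKM in primed RUES2, and 18.1 ± 1.19 FPKM in naive and 12 ± 1.18 FPKM in primed H9; SD, n = 3 each), and NDUFAF7 fell in H9 (-0.84, adjusted p = 0.000694, limma). Of 9 assembly factors of complexes II and III, 3 rose and 1 fell in RUES2 and 2 rose and 2 fell in H9; BCS1L, which inserts the Rieske protein UQCRFS1, rose in both (1.08 and 0.37), and C6orf57, the complex II assembly factor SDHAF4, fell in both (-0.62 and -1.04). Of 22 for complex IV, 8 rose and 3 fell in RUES2 and 3 rose and 2 fell in H9, where both shares are below those of all genes, among them SCO2, a copper chaperone, which rose in both (0.71 and 0.56), and SURF1, which fell in both (-0.20 and -0.33). Of 6 genes around complex V, C14orf2, USMG5 and TMEM70 rose and ATPIF1, the inhibitor of the synthase, fell in both labels. C14orf2 and USMG5 are small subunits of complex V whose symbols lie outside the rule. ATPIF1 averaged 160.2 ± 10.8 FPKM in naive and 219.6 ± 16.4 FPKM in primed RUES2, and 135 ± 7.69 FPKM in naive and 192 ± 1.61 FPKM in primed H9 (SD, n = 3 each). Genes encoded in mitochondrial DNA are not analysed here.

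Of 14 tested genes of electron carriers and ubiquinone synthesis, 7 rose and 1 fell in RUES2 and 5 rose and 1 fell in H9. CYCS, cytochrome c, rose in both (0.33 and 0.43), as did PDSS1, which starts the ubiquinone side chain (1.10 and 0.72), and the methyltransferase COQ5 fell in both (-0.36 and -0.52). Of 14 citric acid cycle genes, 8 rose and 0 fell in RUES2 and 8 rose and 1 fell in H9. SUCLG1, the alpha subunit of succinyl-CoA ligase, rose in both (0.90 and 0.75), while its GDP-forming beta subunit SUCLG2 averaged 16.9 ± 1.48 FPKM in naive and 18.4 ± 1.80 FPKM in primed RUES2, and 11.4 ± 0.439 FPKM in naive and 25.7 ± 1.85 FPKM in primed H9 (SD, n = 3 each; -1.10 in H9, adjusted p = 1.03e-05, limma). Of 7 tested carriers and channels for nucleotides and phosphate, 6 rose in RUES2 and 5 in H9, led by the ADP/ATP carrier SLC25A5 (0.90 and 1.01). Of 15 tested regulators of mitochondrial genes, 4 rose and 2 fell in RUES2 and 3 rose and 3 fell in H9, so that the share that rose was near that of all genes in both labels. ESRRA, an orphan nuclear receptor that acts on respiratory genes, rose in both (0.84 and 0.49), YY1 fell in both (-0.18 and -0.21), and NRF1 passed the test in neither (-0.15 and -0.10).

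Markers of other cells moved with the states as well. In bulk libraries, fewer cells of a type and less RNA per cell cannot be told apart. For scale, 23.1% of all genes tested rose and 23.6% fell in RUES2, and 20.4% rose and 23.9% fell in H9. Of 14 fibroblast markers, 8 rose and 1 fell in RUES2 and 9 rose and 1 fell in H9. Their summed FPKM was 792 to 2460 in naive and 532 to 863 in primed RUES2, and 1151 to 1608 in naive and 555 to 1056 in primed H9, and 0 of the 14 were at 0 in all libraries of a group. Of 10 markers of pluripotent cells, 10 fell in RUES2 and 7 in H9, with sums of 1229 to 1450 FPKM in naive and 2384 to 2703 FPKM in primed RUES2, and 1304 to 1349 FPKM in naive and 2262 to 2682 FPKM in primed H9. POU5F1, 1 of these 10 markers, averaged 527 ± 64.9 FPKM in naive and 779 ± 108 FPKM in primed RUES2, and 436 ± 17.7 FPKM in naive and 909.8 ± 104 FPKM in primed H9 (SD, n = 3 each). The part of these shifts in the members' values was not tested.

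The spread between replicates was small for the members, with a median coefficient of variation of 5.57% in naive RUES2, 6.19% in primed RUES2, 3.29% in naive H9 and 6.20% in primed H9. Member levels over the 12 libraries ran from 2.37 FPKM for COX6B2 to 1218 FPKM for COX7C, with a median of 102.6 FPKM. Transcript length was taken as the median over a gene's protein-coding transcripts in GENCODE, or over all its transcripts where it had none. It need not be the length of the transcripts expressed here or the one behind the FPKM. By this measure members are short, with a median of 712 nt beside 1735 nt for all genes with a length, and 56 of the 81 fall in the shortest of 5 equal groups of genes by length. That group had a median change of 0.03 in RUES2 and -0.00 in H9. With the trend on transcript length removed, 52 members rose and 4 fell in RUES2, and 40 rose and 5 fell in H9.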

How the data were processed

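RNA was sequenced in 12 libraries of 4 groups. The deposited tables hold FPKM per gene on hg19, per the file headers, while the design text speaks of RPKM. Per the submitters' processing notes, reads were handled with bcl2fastq 2.17.1.14 and TopHat2 2.1.1. The program behind the FPKM, its annotation and whether libraries kept strand are not stated, which leaves overlapping genes uncertain. Each table has 25278 entries for 23615 symbols; 554 symbols had more than 1 locus and were read at the one with the highest mean, entries with 2 values not marked OK were left out, and 23613 symbols remained. Columns not assigned to a library numbered 0. Whole reads could not be recovered: 40.4% to 43.5% of values under 60 implied fragments came out whole within 0.05, so no count test was run and the depth in fragments is unknown.

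Genes at 1 FPKM or more in at least 3 libraries (14428) were tested on log2(FPKM + 1), a scale that understates changes of low genes, with limma 3.58.1 in R 4.3.3 (1 mean per group over all 12 libraries, variance trend, two-sided, Benjamini-Hochberg adjustment over all genes tested, threshold 0.05). The procedure was tested on simulated data. Tables were handled with Python 3.11.15, pandas 2.3.3 and numpy 2.4.6, and figures drawn with matplotlib 3.10.9. The members and all gene lists were chosen with earlier results of these data known. Named members were the up to 3 highest and lowest called changes per complex and label, up to 5 calls each way for the difference between labels, all members with tissue-restricted isoforms, the most and least abundant of each complex and all that missed the filter; genes of other lists were named by the size of their change, up to 3 each, and SURF1, USMG5, YY1, NRF1, CYCS, UQCR11 and POU5F1 beyond that rule after their values were seen. The values of 1 member are not reported here, though it is in the counts and medians. Alternatives were other pseudocounts, filters, scalings, a length correction, the replicate block, 2-group fits, no variance trend, summed loci and leaving out each library; 1 scaling was added after seeing the data.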

Additional observations from a re-analysis of the deposited data

Results flagged for a closer look

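For 6 of 81 members the change from primed to naive differed between libraries labelled RUES2 and H9 by a test of the difference itself (limma, adjusted p under 0.05 over all genes tested). The difference was positive for 4.94% of members and negative for 2.47%, near the 3.77% and 1.93% of all genes tested. For 5 of these 6 members the difference, RUES2 minus H9 on the log2 scale, was 0.62 for NDUFA7, 0.53 for NDUFA3 and 0.46 for COX7B, and -0.67 for UQCRFS1 and -0.83 for NDUFB11. Of 24 alternatives, UQCRFS1 kept its call in 24, NDUFA3 in 21, NDUFB11 in 18, COX7B in 10 and NDUFA7 in 3. The difference between line labels cannot be told apart from what the libraries labelled RUES2 are.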

How the results depend on the processing

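Single calls were followed through the alternatives only for members chosen by the naming rule, many of them for a large change, and not for every call. Of their 78 called results, 36 kept their direction and call in all alternatives and 42 lost the call in at least 1. Among the latter, 1 reversed (NDUFA4 in RUES2, -0.000777 with libraries scaled to the same FPKM sum). That scaling also gave, as counts of members, 13 higher and 10 lower in RUES2 and 15 higher and 11 lower in H9. In all it gave 1 positive difference between labels and 9 members higher in naive RUES2 than in naive H9. It set the medians of complexes I to V to 0.063, 0.11, 0.077, 0.085 and 0.046 in RUES2 and to 0.080, 0.063, 0.14, 0.012 and 0.041 in H9. Quantile normalization gave 11 lower in H9, medians of 0.24, 0.23 and 0.21 for complexes I, IV and V in RUES2 and of 0.16, 0.15 and 0.11 for I, II and IV in H9. Without the 10 highest entries in the sum, medians in RUES2 were 0.21, 0.23, 0.24 and 0.20 for complexes I, III, IV and V. That choice gave in all 2 positive differences between labels and 11 members higher in naive RUES2 than in naive H9. Removing the length trend set complex IV in H9 to 0.19. A filter of 5 FPKM left 2 lower in RUES2, and median ratio scaling left 2 positive differences between labels. With no filter, 1 member, COX7A1, was higher in primed RUES2 than in primed H9. The cause of these shifts was not tested, except that the filter removes the lowest members.

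Leaving out 1 library at a time, 51 to 54 members rose and 3 to 4 fell in RUES2, and 26 to 40 rose and 4 to 8 fell in H9. The difference between labels had 0 to 4 positive and 1 to 2 negative calls, the primed comparison 0 to 1 higher and 0 lower, and the naive comparison 10 to 26 higher and 1 to 3 lower. Complex medians I to V ran from 0.29 to 0.33, 0.24 to 0.46, 0.27 to 0.38, 0.29 to 0.37 and 0.25 to 0.34 in RUES2, and from 0.18 to 0.25, 0.18 to 0.24, 0.23 to 0.30, 0.13 to 0.17 and 0.10 to 0.23 in H9. The replicate block gave 53 higher and 4 lower in RUES2 and 35 higher and 6 lower in H9; same-numbered libraries correlated at -0.05 to 0.08 between states and at -0.01 to 0.14 between labels in their deviations from the group means, not all above 0.1 in any comparison, so the numbers were not taken to pair the libraries.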

Other observations

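CHCHD2, a mitochondrial protein that binds complex IV and was chosen after its values were seen, measured 107, 208 and 106 FPKM in naive RUES2 and 35.0, 239 and 33.9 FPKM in primed RUES2, against 304 to 330 FPKM in naive H9 and 192 to 226 FPKM in primed H9. NDUFA4L2, a relative of NDUFA4 that is induced at low oxygen, made up 0.497%, 0.533% and 0.272% of the NDUFA4 and NDUFA4L2 sum in naive RUES2 and 7.62%, 1.36% and 2.85% in primed RUES2. In H9 its share was 0.513%, 0.176% and 0.230% in naive and 0.789%, 0.353% and 2.096% in primed libraries, which overlap, and 1 primed library of each label stands well above the others of its group.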
